A study of Mus musculus with 8 samples.

Results

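Kainate receptor transcripts were examined in hippocampi of mice aged 12 months that were either Dclk3 knockout (KO) or wild type (WT). The genes were the 5 kainate receptor subunits (Grik1 to Grik5) and the 2 Neto auxiliary subunits. They are defined by name, by a rule that uses no measured value, but the set was proposed with earlier results of these data known. All 7 were found among 31417 genes counted, and all 7 passed the filter on low counts. Poly(A) RNA of bulk tissue was sequenced in 8 libraries, 4 from KO and 4 from WT mice, each prepared with a stranded kit from 1000 ng of total RNA of 1 hippocampus. Dclk3 encodes doublecortin-like kinase 3, and the comparison asks how its loss is reflected in hippocampal RNA. The sources used here do not give the allele, the strain, the sex or the number of animals per group, so the p-values measure the spread between these libraries, part of which may be technical. Bulk tissue holds many cell types, and fewer cells of a type cannot be told apart from less RNA per cell.

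Kainate receptors are glutamate-gated cation channels built as tetramers of GluK1 to GluK5, the products of Grik1 to Grik5. GluK1, GluK2 and GluK3 can form channels by themselves, whereas GluK4 and GluK5, which bind kainate with high affinity, reach the surface as functional channels only together with one of these. Neto1 and Neto2 are transmembrane CUB-domain proteins that bind the receptor and slow its gating. In the hippocampus the receptors are best known at the mossy fibre synapse, where dentate granule cells contact CA3 pyramidal cells, and in GABA interneurons.

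None of the 7 transcripts was called as different between KO and WT hippocampi (lowest edgeR adjusted p = 0.797, lowest unadjusted p = 0.124). Of all 16228 genes tested, edgeR called 0. All 7 had fitted log2 fold changes below 0, from -0.15 for Neto1 and -0.14 for Grik4 to -0.02 for Grik5, and the KO and WT libraries overlapped for each gene. Per length, Grik5 was the most abundant of the 7 by a wide margin and Grik1 the least. The ratio of Neto1 to Neto2 was lower in each KO library than in each WT library. The gap between the nearest libraries, KO replicate 4 and WT replicate 1, was smaller than the counting error of a single library. The ratio was 1 of 6 composition measures compared, and the groups did not overlap for 3.80% of all single genes tested.

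The pore-loop sequences of the 5 Grik transcripts are shown here because stretches that are alike bear on whether a short read can be assigned to one gene. The capitals mark the Q/R codon, the glutamine codon right after the methionine of the pore loop, which adenosine deaminases can recode to arginine in Grik1 and Grik2 RNA. Each stretch is the coding strand of a GENCODE M21 transcript.
Grik1: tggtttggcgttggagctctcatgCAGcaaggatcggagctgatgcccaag
Grik2: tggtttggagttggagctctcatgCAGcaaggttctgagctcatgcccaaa
Grik3: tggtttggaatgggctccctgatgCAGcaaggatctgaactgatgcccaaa
Grik4: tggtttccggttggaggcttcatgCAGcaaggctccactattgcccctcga
Grik5: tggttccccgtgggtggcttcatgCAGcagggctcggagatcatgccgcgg
On mm10 the stretches span chr16:87936096-87940568 (Grik1, minus strand, exons 13 and 14), chr10:49240777-49244355 (Grik2, minus strand, exons 13 and 14), chr4:125691183-125693981 (Grik3, plus strand, exons 12 and 13), chr9:42547599-42547649 (Grik4, minus strand, exon 14) and chr7:25022473-25022523 (Grik5, minus strand, exon 15). For Grik1, Grik2 and Grik3 the stretch crosses a splice junction, and for Grik4 and Grik5 it lies within 1 exon. Over the 51 bases, Grik1 and Grik2 were identical at 46 positions (90.2%), and Grik3 and Grik4, the least alike pair, at 28 (54.9%). Across whole transcripts, the longest exact run shared by any of the 21 pairs of the 7 genes was 46 bases, between Grik2 and Grik3. Gene-level counts do not show which base the reads carried at the Q/R codon.

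The genes lie on different chromosomes apart from Grik4, which shares chromosome 9 with Dclk3. On mm10, Grik1 (ENSMUSG00000022935) lies at 16:87895900 to 88290265, Grik2 (ENSMUSG00000056073) at 10:49094833 to 49788766 and Grik3 (ENSMUSG00000001985) at 4:125490700 to 125714173. Grik4 (ENSMUSG00000032017) lies at 9:42518135 to 42944493, Grik5 (ENSMUSG00000003378) at 7:25009849 to 25072346, Neto1 (ENSMUSG00000050321) on chromosome 18 and Neto2 (ENSMUSG00000036902) at 8:85636588 to 85700924. All are annotated as protein coding. Their exons overlap few other annotated genes: 219 exonic bases of Neto1 lie opposite an antisense gene, 59 bases of Grik4 are shared with a small RNA gene and 20 bases of Neto2 lie opposite a miRNA gene.

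Libraries held 29301974 to 36552757 counts, and levels are given as CPM, that is counts relative to the library total after TMM scaling. Dclk3, the targeted gene, stood at 8.19, 9.29, 5.92 and 7.46 CPM in the KO libraries, against 23.0, 39.3, 20.8 and 23.5 CPM in the WT libraries, so that the groups did not overlap. Its log2 fold change was -1.79 (SE 0.22), with an adjusted p of 0.234 by edgeR's quasi-likelihood test and 3.93e-13 by DESeq2. With the WT replicate 2 library left out, edgeR called Dclk3 (adjusted p = 0.0121).

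Markers of the hippocampal fields were detected in full. All 9 dentate granule cell, 7 CA1, 9 CA3 and CA2 and 11 GABA neuron markers had counts. None of them was called by edgeR, which called 0 of all 16228 genes tested. At an unadjusted p under 0.05 by edgeR, 3 dentate and 2 GABA neuron markers were higher in KO and 1 GABA neuron marker was lower. No CA1 or CA3 and CA2 marker reached it, and 6.16% of all genes did. KO and WT libraries did not overlap for 2 dentate markers and 1 GABA neuron marker, against 3.80% of all genes. The summed dentate markers, led by Stxbp6 and Calb1, stood at 797 to 876 CPM in KO and 677 to 771 CPM in WT, with 9 of 9 above 0 in log2 fold change. The summed CA1 markers, led by Mpped1 and Fibcd1, stood at 762 to 930 CPM in KO and 847 to 980 CPM in WT, with 7 of 7 below 0. The summed CA3 and CA2 markers, led by Chgb and Cpne4, stood at 1039 to 1502 CPM in KO and 1281 to 1529 CPM in WT, with 8 of 9 below 0; the lowest sum belonged to KO replicate 1, in which 6 of the 9 were at their lowest. The summed GABA neuron markers, led by Gad1 and Gad2, stood at 1062 to 1118 CPM in KO and 1139 to 1227 CPM in WT, with 7 of 11 below 0. Choroid plexus markers ranged most widely within both groups, from 183 to 3393 CPM in KO and from 68.8 to 2167 CPM in WT.

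Levels of different genes were compared as CPM per kilobase of merged exons. Grik5, which encodes the high-affinity subunit GluK5, averaged 45.7 ± 1.29 in KO and 46.3 ± 2.26 in WT (mean ± SD, n = 4 each, here and below). Neto1 followed with 13.4 ± 1.71 in KO and 14.8 ± 0.897 in WT, Grik4 with 13.1 ± 1.34 and 14.4 ± 1.36, and Neto2 with 11.0 ± 1.49 and 11.2 ± 0.589. Grik3 averaged 6.41 ± 0.970 in KO and 6.74 ± 1.11 in WT, Grik2 3.86 ± 0.387 and 4.06 ± 0.0753, and Grik1 1.76 ± 0.131 and 1.83 ± 0.0908. In this order, the 8 libraries of neighbouring genes overlapped for Neto1 and Grik4 and for Grik4 and Neto2, whereas the other 4 neighbouring pairs were separate in all libraries. The mean of Grik5 was 3.26 times that of Neto1. With the longest annotated transcript as the length, Grik1, Grik2 and Grik5 stood at 3.30, 5.56 and 58.5 CPM per kb over all 8 libraries; the order was the same, but Grik2 and Grik3 then overlapped.

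**Figure D1:**
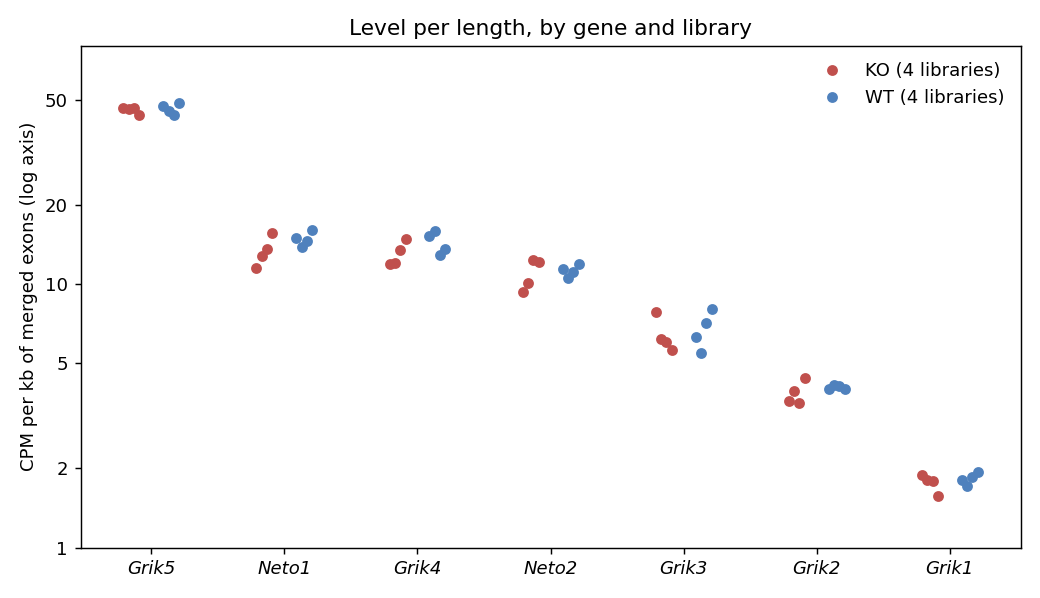
Level of each gene in CPM per kb of merged exons, on a log axis, with KO libraries to the left of WT libraries (1 point per library, 4 per group). Grik5 lies near 46 in both groups, Neto1, Grik4 and Neto2 lie close together between 9.35 and 16.0, and Grik1 lies lowest, under 2.

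Of the summed Grik level per length, Grik5 made up 62.4% to 65.8% in KO and 62.5% to 63.8% in WT, and Grik4 16.7% to 21.1% in KO and 17.8% to 21.9% in WT. The high-affinity subunits Grik4 and Grik5 together accounted for 83.0% ± 1.13 in KO and 82.8% ± 1.55 in WT. The sum of all 5 Grik transcripts was 70.9 ± 0.792 CPM per kb in KO and 73.3 ± 2.93 CPM per kb in WT. As a share of the summed level of kainate, AMPA and NMDA receptor subunit transcripts, the Grik genes held 13.6% to 17.5% in KO and 14.3% to 15.1% in WT.

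Among the subunits that form channels by themselves, Grik1 was the rarest, with 331 to 465 counts per library; the exact 95% Poisson interval of its lowest count ran from 296 to 369, which covers counting error alone. GluK1 is known in the hippocampus mainly from interneurons. Grik1 stood at 12.7, 12.1, 12.0 and 10.6 CPM in KO replicates 1 to 4 and at 12.1, 11.6, 12.4 and 13.0 CPM in WT replicates 1 to 4. The groups overlapped, with KO replicate 4 lowest and WT replicate 4 highest. The log2 fold change was -0.05 (SE 0.08; 95% interval -0.24 to 0.13; edgeR adjusted p = 0.916), and leaving out KO replicate 4 gave -0.0037, leaving out KO replicate 1 gave -0.081, leaving out WT replicate 4 gave -0.025. Of the 8 libraries, KO replicate 4 also had the lowest summed GABA neuron markers and WT replicate 4 the highest. Not all libraries matched in this way. KO replicate 1 was high in Grik1 (12.7 CPM) with summed markers of 1091 CPM, below every WT library. WT replicate 2 was low in Grik1 (11.6 CPM) with summed markers of 1171 CPM, above every KO library. The single markers were mixed: of the 11, 2 were at their lowest and 2 at their highest in KO replicate 4. In WT replicate 4, 1 of the 11 was at its highest. The part of these markers in the level of Grik1 was not tested.

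Grik2 encodes GluK2, a subunit of receptors in dentate granule cells and CA3 pyramidal cells. It stood at 47.6, 51.9, 47.0 and 58.1 CPM in the KO libraries and at 53.0, 54.7, 54.4 and 52.7 CPM in the WT libraries. The WT libraries lay within a narrow band, with a coefficient of variation of 1.86% against 10.0% in KO; 3 KO libraries lay below that band and KO replicate 4 above it. The log2 fold change was -0.07 (SE 0.07; 95% interval -0.23 to 0.09; edgeR adjusted p = 0.864), and leaving out KO replicate 4 gave -0.14, whereas leaving out KO replicate 1 or KO replicate 3 gave -0.033.

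Grik3, which encodes GluK3, a subunit with low sensitivity to glutamate, varied most among libraries. It stood at 70.2, 55.6, 54.0 and 50.4 CPM in the KO libraries and at 56.7, 49.1, 63.8 and 72.4 CPM in the WT libraries. KO replicate 1 and WT replicate 4 were high, WT replicate 2 and KO replicate 4 were low, and the groups overlapped over nearly their whole ranges. Its highest library held 1.48 times its lowest, and its SD within groups, 0.22 on the log2 scale, was larger than that of 92.8% of the 1000 genes nearest to it in level. The log2 fold change was -0.07 (SE 0.13; 95% interval -0.37 to 0.23; edgeR adjusted p = 0.936), and leaving out WT replicate 4 gave 0.026, leaving out KO replicate 1 gave -0.18.

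Of the high-affinity subunits, Grik4 encodes GluK4, which in the hippocampus is known above all from CA3. Grik4 stood at 71.2, 71.9, 80.3 and 88.1 CPM in the KO libraries and at 91.1, 94.5, 77.1 and 81.2 CPM in the WT libraries. KO replicates 1 and 2 were the lowest of the 8 libraries, and the other KO libraries lay within the WT range. The mean in KO was 90.6% of that in WT, with a log2 fold change of -0.14 (SE 0.09; 95% interval -0.34 to 0.05; edgeR adjusted p = 0.797). Without KO replicate 1, the library with the lowest summed CA3 and CA2 markers, the log2 fold change of Grik4 was -0.098. Leaving out KO replicate 2, whose summed CA3 and CA2 markers (1321 CPM) lay within the WT range, gave -0.10. Leaving out WT replicate 2, which had the highest sum, gave -0.092, and leaving out KO replicate 4 gave -0.21. The part of CA3 markers in the level of Grik4 was not tested.

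Grik5 was the steadiest of the 7 transcripts, with a within-group SD of 0.058 on the log2 scale. It stood at 240.1, 239, 240.4 and 226 CPM in the KO libraries and at 245, 234, 225 and 252 CPM in the WT libraries. KO replicate 4 lay apart from the other KO libraries but inside the WT range. The log2 fold change was -0.02 (SE 0.06; 95% interval -0.14 to 0.11; edgeR adjusted p = 0.967), and with upper quartile scaling it was 0.0027. The interval corresponds to a KO level between 0.906 and 1.08 times the WT level, the narrowest of the 7.

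Neto1 is the auxiliary subunit known from CA3 mossy fibre synapses. It stood at 96.3, 107, 114 and 130.3 CPM in the KO libraries and at 125, 115, 122 and 134 CPM in the WT libraries. KO replicates 1, 2 and 3 lay below all WT libraries, while KO replicate 4 lay above 3 of them. The mean in KO was 90.2% of that in WT, with a log2 fold change of -0.15 (SE 0.09; 95% interval -0.35 to 0.05; edgeR adjusted p = 0.797), and leaving out KO replicate 1 gave -0.08, leaving out KO replicate 4 gave -0.23. Neto2 stood at 57.3, 62.0, 75.7 and 74.6 CPM in the KO libraries and at 69.9, 64.4, 67.9 and 73.0 CPM in the WT libraries. KO held both the lowest and the highest libraries, so that the WT range lay inside the KO range. The log2 fold change of Neto2 was -0.03 (SE 0.09; 95% interval -0.23 to 0.17; edgeR adjusted p = 0.961); leaving out KO replicate 1 gave 0.045 and leaving out KO replicate 2 gave 0.0094.

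**Figure D2:**
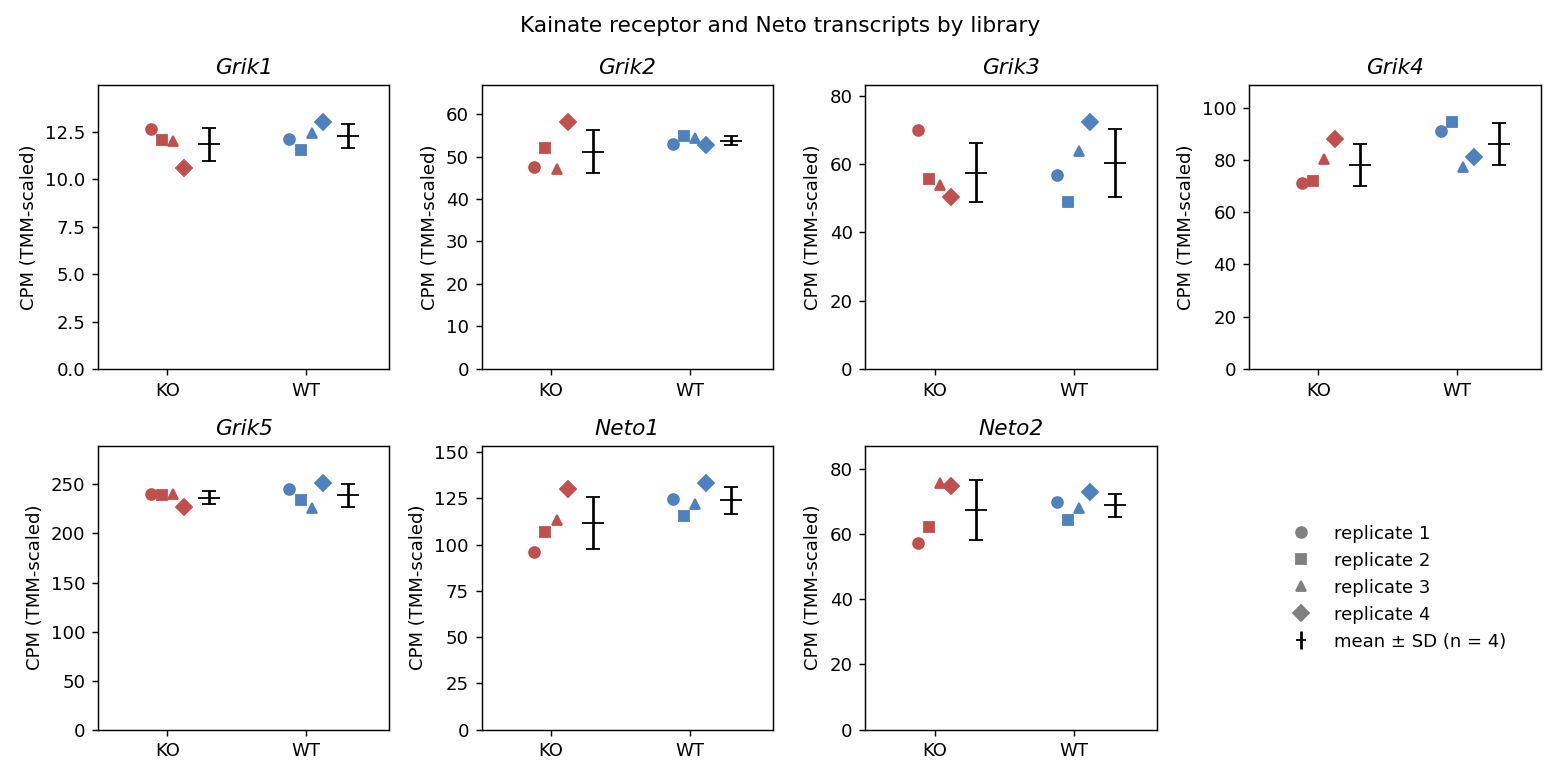
CPM (TMM-scaled, linear axes from 0) of the 7 transcripts in each library, KO left and WT right in each panel; marker shapes give the replicate number and black bars the mean ± SD (n = 4 each). The groups overlap in every panel, and Neto1 has 3 KO libraries below all WT libraries.

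Over all 16228 genes tested, edgeR called 0 genes at an adjusted p under 0.05 (0.00%), and 1000 genes (6.16%) had an unadjusted p under 0.05. Of the 7 kainate receptor and Neto genes, 0 were called, and 0 had an unadjusted p under 0.05 by edgeR, where the lowest were 0.124 for Neto1 and 0.135 for Grik4. DESeq2 called 5 of 16216 genes (0.0308%), none of them among the 7, whose lowest unadjusted p by DESeq2 was 0.129, where 6.17% of genes had one under 0.05. With limma-voom and sample quality weights, Neto1 had an unadjusted p of 0.0189 (log2 fold change -0.20; adjusted p = 0.484), where 9.18% of all genes had an unadjusted p under 0.05 and 0 genes were called. Permutation tests (exact, two-sided) of single genes gave p = 0.171 for Neto1 and p = 0.229 for Grik4, and between 0.314 and 0.771 for the other 5, where 0.0286 is the smallest p that 4 against 4 libraries allow. For 0 of the 7 genes were KO and WT libraries without overlap, as they were for 3.80% of all genes tested. The median log2 fold change of the 7 was -0.07, against 0.00029 over all genes, of which 49.9% lay below 0.

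**Figure D3:**
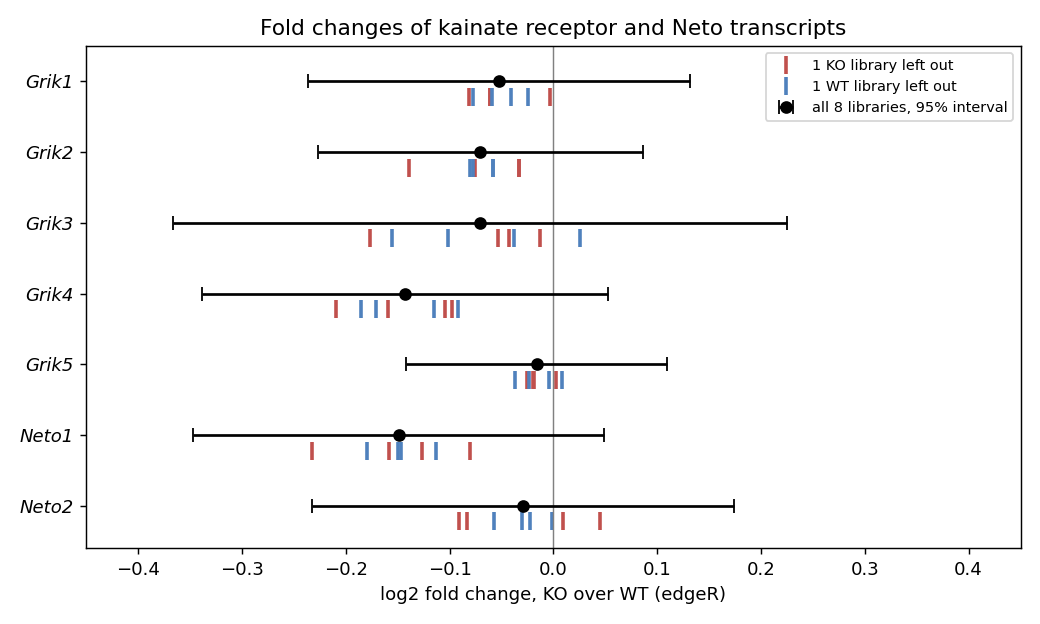
Fitted log2 fold change of KO over WT for each transcript (black points, with 95% intervals from edgeR) and the values with 1 KO library (red ticks) or 1 WT library (blue ticks) left out. Every interval includes 0; the ticks of Grik1, Grik2, Grik4 and Neto1 stay below 0, and those of Grik3, Grik5 and Neto2 fall on both sides.

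The ratio of Neto1 to Neto2, per length, was 1.23, 1.26, 1.10 and 1.28 in the KO libraries and 1.31, 1.32, 1.32 and 1.34 in the WT libraries. The WT libraries were close together (1.32 ± 0.0145), and the KO libraries spread more widely below them (1.22 ± 0.0823). The groups did not overlap in this ratio, the only one of 6 composition measures (the 5 Grik shares and this ratio) for which this held. Among single genes, the groups did not overlap for 3.80% of all genes tested. The 5 Grik shares depend on each other. The nearest libraries were KO replicate 4 at 1.28 and WT replicate 1 at 1.31. Their exact 95% binomial intervals, which cover counting error alone, ran from 1.22 to 1.35 and from 1.25 to 1.38, so that these libraries could not be told apart at this depth. A ratio of 2 of the chosen genes was given no test.

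**Figure D4:**
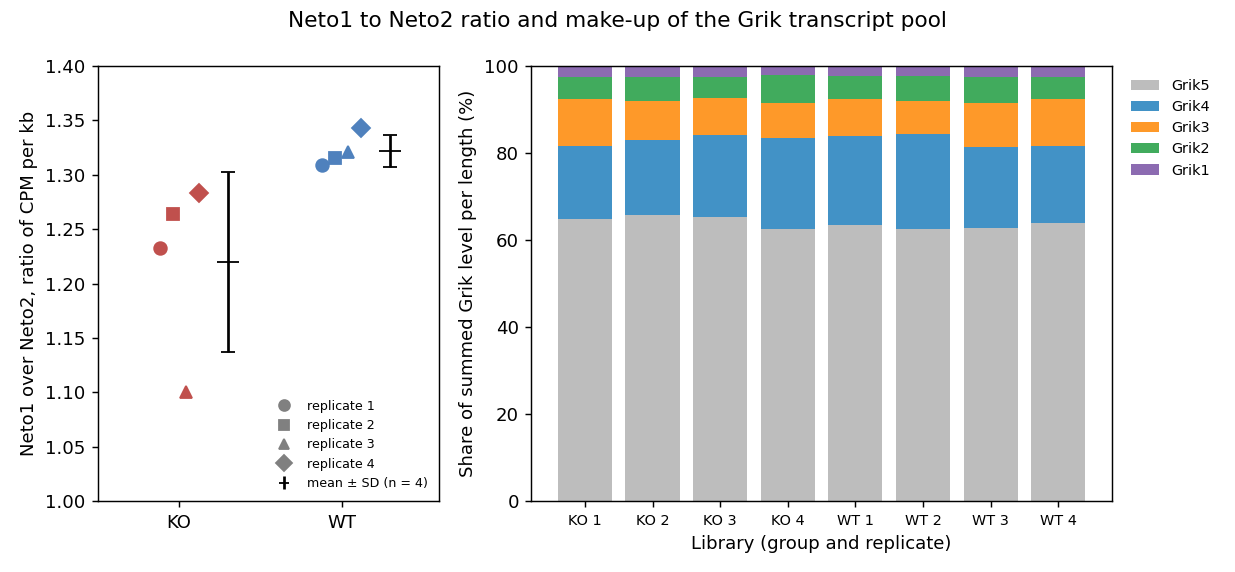
Left, ratio of Neto1 to Neto2 in CPM per kb, by library (axis from 1.0 to 1.4), KO left and WT right, with mean ± SD (n = 4 each); the KO libraries lie between 1.10 and 1.28 and the WT libraries between 1.31 and 1.34. Right, share of each subunit in the summed Grik level per length in each library; Grik5 holds 62.4% to 65.8% everywhere.

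Profiles across libraries differed between the transcripts. In KO replicate 1, Neto1, Neto2 and Grik4 were at their lowest of the 8 libraries, 0.28, 0.24 and 0.20 below their own means on the log2 scale, while Grik3 was 0.26 above its mean. The summed CA3 and CA2 markers of that library were 0.39 below their mean, the lowest of the 8. The library also had the highest summed cortical markers (207 CPM) and thalamic and habenular markers (105 CPM). Of the 6 astrocyte markers, 4 were at their highest in it. The part of these markers in the levels of Neto1, Neto2, Grik4 and Grik3 was not tested. In WT replicate 2, Grik4 was 0.21 above its mean and Grik3 0.25 below. Grik3 and Grik4 thus lay on opposite sides of their means in both libraries. WT replicate 2 had the highest summed CA3 and CA2 markers (1529 CPM). Its summed astrocyte markers were also the highest, at 4115 CPM, although 3 of the 6 were at their lowest in it. The part of these markers was not tested either. All 7 transcripts were below their own medians in KO replicate 2 and none in WT replicate 1.

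**Figure D5:**
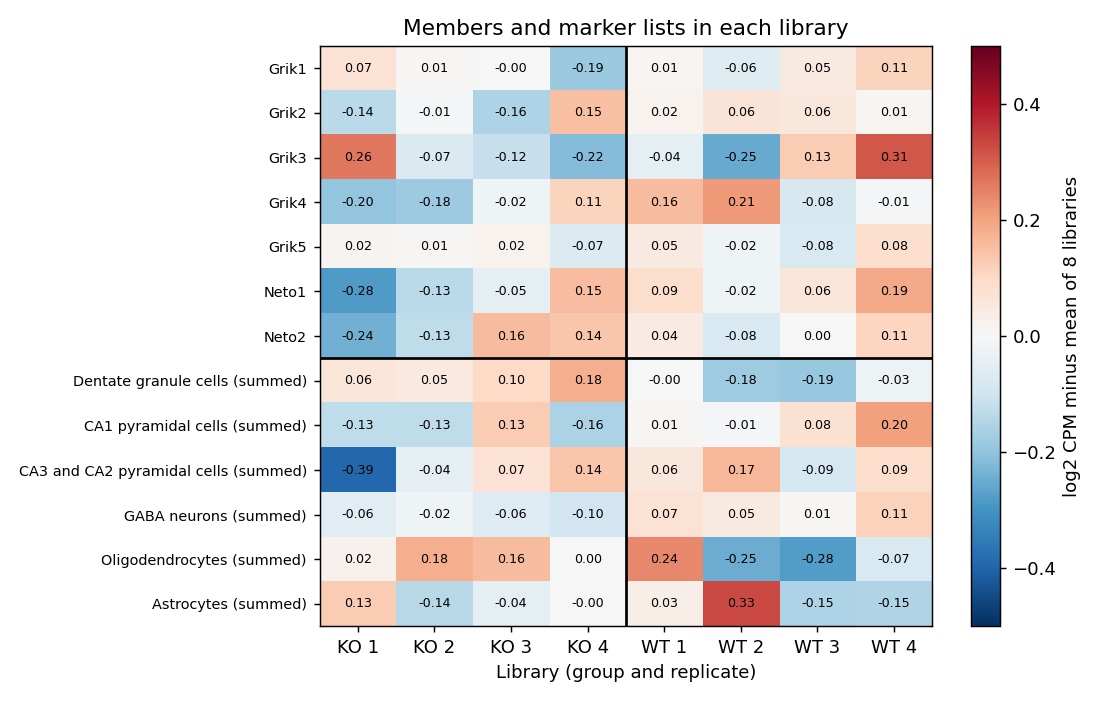
Deviation of log2 CPM from the mean of the 8 libraries for the 7 transcripts (above the line) and for summed marker lists (below), with KO libraries left of WT libraries. KO replicate 1 is low for Neto1, Neto2, Grik4 and the CA3 and CA2 markers and high for Grik3.

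For each of the 7, the gene with the most similar profile over the 8 libraries was sought among 9628 other protein-coding genes of at least 10 CPM. The measure was the root mean square difference between standardised log2 levels, which is 0 for identical profiles and had medians of 1.18 to 1.38 over the genes searched. Pptc7 lay nearest to Neto2 (0.0822), and Cpeb3 to Neto1 (0.196). For the subunits, Letmd1 lay nearest to Grik1 (0.227), Nip7 to Grik2 (0.326), Lgi2 to Grik3 (0.248), Smim7 to Grik4 (0.244) and Slc38a7 to Grik5 (0.271). Among the 7 themselves, the closest pairs were Grik1 with Grik3 (0.523) and Neto1 with Neto2 (0.571), and the farthest was Grik3 with Grik4 (1.67). These distances describe 8 libraries and carry no test.

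A list of 32 genes whose products act on, bind or couple to kainate receptors or Neto proteins held 31 measured genes. Of these, 0 were called by edgeR in either direction and 0 had an unadjusted p under 0.05. Of all 16228 genes tested, 0 were called and 6.16% had an unadjusted p under 0.05. In log2 fold change 9 lay above and 22 below 0, with a median of -0.03, where 49.9% of all genes lay below 0. C1ql2 is also among the dentate markers. Of the genes that recruit receptors at mossy fibre synapses, C1ql3, which encodes a secreted C1q-like protein, had the lowest p of the list, at 98.8 ± 4.06 CPM in KO and 88.5 ± 8.81 CPM in WT (log2 fold change 0.16, SE 0.07; edgeR adjusted p = 0.796). Of the 11 scaffold and trafficking genes 8 lay below 0, among them Ctnnb1, which encodes beta-catenin, at 551 ± 18.4 CPM in KO and 594 ± 33.7 CPM in WT. Of the enzymes that edit Grik RNA, Adar stood at 181 ± 10.1 CPM in KO and 195 ± 12.1 CPM in WT, and Adarb1 at 222 ± 12.3 and 216 ± 14.2 CPM. Of the 11 measured genes that modify GluK2 after translation 8 lay below 0. All 3 G protein genes and Slc12a5, the chloride transporter bound by Neto2, also had log2 fold changes below 0, between -0.09 and -0.01.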

How the data were processed

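The authors deposited a table of read counts per Ensembl gene, raw per the file headers, with each library in its own column. The submitters' processing notes name bcl2fastq 2.17.1.14 and mm10. Not given in the sources used here are the aligner, the counter, whether strand was used and the read length, which decide where reads of overlapping genes go. Symbols, positions and lengths came from GENCODE M21.

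The comparison of KO with WT used edgeR 4.0.16 under R 4.3.3 (TMM, filterByExpr, robust quasi-likelihood F test, Benjamini-Hochberg adjustment over all genes tested). The SE is the log2 fold change over the square root of F. Alternatives were DESeq2 1.42.0, limma-voom 3.58.1, other scalings, no filter, a replicate block, a threshold of 0.1, transcript lengths and each library left out. The fits were also run on counts simulated with known fold changes and with edgeR's own estimates of the spread between libraries. That setting does not mimic single libraries that stand apart, and its outcome is not reported here. SDs within groups used log2(CPM + 0.5). The 7 members are defined by name, by a rule that uses no measured value, but they, the marker lists and the partner genes were proposed with earlier results of these data known. Named were the 7 genes, Dclk3, the 4 partner genes with the lowest p (1 of them is not reported here), each member's nearest profile and up to 2 abundant markers of a list; Adarb1 and Slc12a5 were named after their values were seen. Permutation tests used SciPy 1.17.1. Libraries of a group differed beyond sampling noise (chi-square per degree of freedom 8.85 to 40.9).

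Of the 12 marker lists, those whose ranges were not given with the results had these summed levels. Oligodendrocyte markers stood at 4307 to 4877 CPM in KO and 3549 to 5076 CPM in WT, and astrocyte markers at 2972 to 3568 CPM in KO and 2941 to 4115 CPM in WT. Microglial markers stood at 524 to 583 CPM in KO and 487 to 563 CPM in WT, and endothelial markers at 177 to 230.5 CPM in KO and 182 to 216 CPM in WT. Striatal markers stood at 77.2 to 97.1 CPM in KO and 70.5 to 105 CPM in WT, thalamic and habenular markers at 76.4 to 105 CPM in KO and 76.6 to 94.6 CPM in WT, and cortical markers at 173 to 207 CPM in KO and 147 to 179 CPM in WT.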

Additional observations from a re-analysis of the deposited data

Results flagged for a closer look

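The Grik5 level of KO replicate 4, 226 CPM against 239 to 240.4 CPM in the other 3 KO libraries, stood apart from its group: its gap to the nearest KO library took up 0.877 of the range of the KO libraries. Such a gap arises by chance in about 1 of 20 groups, and 14 groups were examined here. All 4 WT libraries, at 225 to 252 CPM, spread over a wider range than the KO libraries, and KO replicate 4 lies within it.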

How the results depend on the processing

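None of the 7 genes was called under any of the 14 alternatives to the edgeR fit, and Grik1, Grik2, Grik4 and Neto1 had log2 fold changes below 0 in all of them. Grik5 was at 0.0027 with upper quartile scaling. With each library left out, Grik1 ranged from -0.081 to -0.0037, Grik2 from -0.14 to -0.033, Grik3 ranged from -0.18 to 0.026, Grik5 from -0.037 to 0.0081, Neto2 from -0.091 to 0.045, Grik4 from -0.21 to -0.092 and Neto1 from -0.23 to -0.08. Adjusted p-values over the alternatives were 0.333 to 0.997 for Neto1 and 0.422 to 0.997 for Grik4. The number of genes called was 5 with DESeq2, 1 with the replicate number as a block and 0 or 1 with a library left out, and a threshold of 0.1 called 0. Dclk3 was called with DESeq2 (log2 fold change -1.79) and with the replicate block (-1.76), and ranged from -1.89 to -1.54 with a library left out. Same-numbered KO and WT libraries did not deviate together (correlations of -0.22 to 0.14, and 1 of the 4 numbers matched best with its own), so the numbers were not taken as pairs. Genes at an unadjusted p under 0.05 numbered 556 to 1777 with a library left out, against 1000 with all. The count was 1777 when KO replicate 4 was dropped, 640 when KO replicate 2 was, and 556 when WT replicate 4 was. Genes without overlap numbered 617 with all libraries and 844 to 1806 with 1 left out. The count was highest when KO replicate 4 was dropped and lowest when WT replicate 4 was. Groups with fewer libraries are more often without overlap by chance, so the counts with 1 left out cannot be set against 617. Why the count at an unadjusted p under 0.05 and the count without overlap differed with the library dropped was not tested. With the longest transcript as the length, the ratio of Neto1 to Neto2 averaged 1.16 instead of 1.27, the same factor in every library. With 4 libraries a group, SEs over all genes had a median of 0.105 on the log2 scale, which limits the changes that can be told from 0.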
